A study of Danio rerio with 8 samples.

Results

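The loci described here are 4 long non-coding RNA (lncRNA) genes of the zebrafish, out of 1014 loci in the deposited zebrafish catalogue. They are malat1, cyrano, megamind and the lncRNA named after epb41l4a. They were chosen by locus identifier: XLOC_003759, XLOC_003108, XLOC_005409 and XLOC_001288. Together they hold 8 of 1425 transcript models and 19 of 4540 exon records. The catalogue accompanied ribosome profiling, the sequencing of RNA fragments shielded by ribosomes, in whole wild-type embryos of the TL/AB strains raised at 28.5 °C. Pools of 400 to 600 embryos were taken at 8 stages, namely 2 to 4 cells, 256 cells, 1k cells, Dome, Shield, Bud, 28 hours and 5 days after fertilization, with 1 library each. The table analysed holds exon coordinates on the Zv9 build and belongs to no library. It therefore has no replicate spread and no depth, no difference between stages was examined, and every rank below describes this catalogue without a test.

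A lncRNA is a long transcript for which no protein product is recognised, and its exons, introns and ends are the first things an annotation records of it. Malat1 is known in mammals as an abundant, mostly unspliced RNA of nuclear speckles whose 3′ end is made by cleavage rather than by ordinary polyadenylation. Cyrano carries an extensively paired site for the microRNA miR-7, and in mouse it directs the destruction of that microRNA. Megamind was described in zebrafish as a lncRNA needed for normal brain and eye development. The epb41l4a lncRNA is also called libra, and libra carries a site for the microRNA miR-29 and is known for its effect on fish behaviour.

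Names in the files were checked against the identifiers. For 3 loci the name stood inside a transcript identifier, as in linc-loc100330612_2(malat1)_1, linc-tmem39b(cyrano)_1 and linc-birc6(megamind)_1. The fourth was linc-epb4.1l4_1, and epb4.1l4 is an older symbol of epb41l4a in the RefSeq table of the GRCz12tu assembly, used here for names and gene order only. That table listed NR_046387, the RefSeq model at the cyrano locus, as oip5-as1, lying between oip5 and tmem39b, so the deposited name was that of the neighbour on the other side from oip5. It listed NR_036690 as linc-epb41l4a with the synonym libra, overlapping the gene LOC141376283. That gene lay between srsf9 and gal3st1b, with epb41l4a the gene after gal3st1b. For megamind the name alone was ambiguous, since it is a synonym of both birc6-as2, a lncRNA gene overlapping birc6, and tunar, listed as protein coding. Only birc6-as2 also had the synonym linc-birc6, which is the name in the deposited identifier. Malat1 was matched in that table neither by name nor by the gene ID in its identifier. A separate list of Ensembl gene names did hold malat1, but as used here it gave names and no position. The link of the name to this locus therefore rests on the deposited identifier alone.

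All 4 loci were on the minus strand, as were 486 of the 1014, so transcription runs from higher to lower coordinates and the exons below are numbered in that direction. Malat1 occupied chromosome 14 from 48565580 to 48574855, cyrano chromosome 13 from 33484733 to 33491201, megamind chromosome 17 from 22517187 to 22519802 and the epb41l4a lncRNA chromosome 10 from 1734816 to 1745335. The linc- models, from Ulitsky et al., described every one of them. Zv9_ models, from Pauli et al., were added at malat1, and RefSeq models at cyrano and the epb41l4a lncRNA. These last were the only 2 loci of the catalogue with linc- and RefSeq models and no others.

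**Figure D1:**
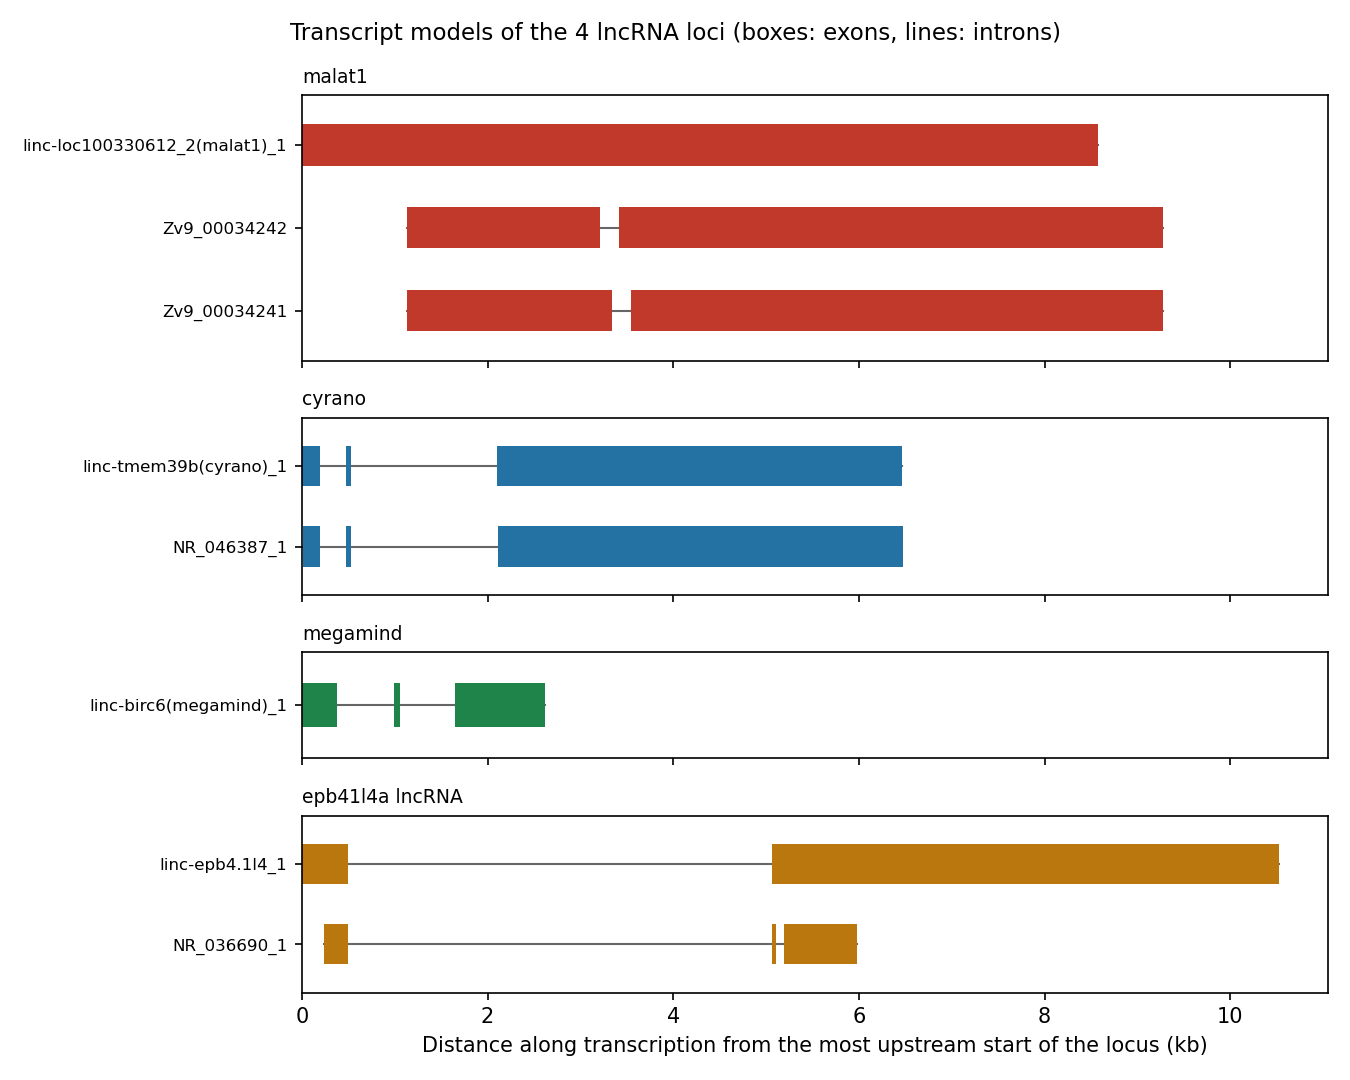
Exons (boxes) and introns (lines) of the 8 transcript models, drawn by distance in kb along the direction of transcription from the most upstream start of each locus. Malat1 has 1 unspliced and 2 spliced models, the cyrano models nearly coincide, and the RefSeq model of the epb41l4a lncRNA stops 4538 bases before the linc- model.

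Malat1 was described by 1 unspliced and 2 spliced models. The linc- model was a single exon of 8571 nt from 48566285 to 48574855. Zv9_00034242 had a first exon of 2077 nt, an intron of 206 bp and a last exon of 5861 nt, for a spliced length of 7938 nt. Zv9_00034241 had exons of 2206 and 5730 nt around an intron of 208 bp, for 7936 nt. The spliced models thus differed from each other only in the position and length of the intron.

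That intron ran from 48571441 to 48571646 in Zv9_00034242 and from 48571310 to 48571517 in Zv9_00034241. The introns overlapped by 77 bases and shared neither end. In Zv9_00034241 the 5′ splice site lay 129 bases and the 3′ splice site 131 bases further downstream. Each intron lay wholly within the exon of the linc- model, 3209 and 3338 bases from its start, so no splice junction was common to any pair of malat1 models. An intron of 1 model inside an exon of another occurred at 43 of the 251 loci with more than 1 transcript (17.1%).

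The malat1 models used 2 starts and 2 ends. The linc- model started at 48574855, which was 1132 bases upstream of the start shared by both Zv9_ models at 48573723. It ended at 48566285, which was 705 bases short of their shared end at 48565580. The linc- model was therefore displaced upstream as a whole, and no model covered the full locus. With exons merged the locus was 1 uninterrupted block of 9276 nt. Of the bases of the linc- model, 84.4% were exonic in each Zv9_ model, and 91.1% of each Zv9_ model was covered by the linc- model.

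Cyrano was described by a pair of models with the same architecture, a short first exon, a short internal exon and a last exon that held nearly all of the RNA. The linc- model had exons of 198, 61 and 4360 nt (4619 nt in all) and introns of 274 and 1574 bp. The RefSeq model had exons of 183, 61 and 4361 nt (4605 nt) and introns of 275 and 1574 bp. The last exon made up 94.4% of the linc- model and 94.7% of the RefSeq model.

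By coordinates the cyrano models agreed at 1 splice site only, the 5′ splice site of the first intron beside position 33491004. No sequence was read, so whether the other splice sites are distinct was not tested. The internal exon ran from 33490669 to 33490729 in the linc- model and from 33490668 to 33490728 in the RefSeq model. The last exon began at 33489094 and at 33489093. Both introns were thus placed 1 base apart at 1 or both ends, and the models shared 4602 exonic bases, or 99.6% of the linc- model and 99.9% of the RefSeq model. No other locus among the 251 with more than 1 transcript held a pair of unequal introns that differed by at most 1 base at each end. The starts, 33491201 for linc- and 33491186 for RefSeq, were 15 bases apart, and the ends, 33484735 and 33484733, were 2 bases apart.

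Megamind had 1 model and so no choice of start or end in the catalogue, as at 763 of the 1014 loci. Its exons measured 375, 65 and 962 nt, from 22519428 to 22519802, from 22518749 to 22518813 and from 22517187 to 22518148. The spliced length was 1402 nt. The introns were nearly equal, at 614 and 600 bp. The last exon held 68.6% of the RNA and was 2.57-fold longer than the first, against 22.0-fold in the linc- model of cyrano, the other locus with 3 exons in its longest model.

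The epb41l4a lncRNA had the most unequal models of the 4 loci. The linc- model joined a first exon of 494 nt to a last exon of 5460 nt across an intron of 4566 bp, for 5954 nt. The RefSeq model had exons of 259, 49 and 784 nt, for 1092 nt, and introns of 4566 and 89 bp. The first intron, from 1740276 to 1744841, was identical in both. The second, from 1740138 to 1740226, lay inside the last exon of the linc- model.

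The ends of the epb41l4a lncRNA models differed more than their starts. The RefSeq model started at 1745100, which was 235 bases downstream of the linc- start at 1745335, and ended at 1739354, which was 4538 bases upstream of the linc- end at 1734816. All 1092 bases of the RefSeq model were exonic in the linc- model and made up 18.3% of it. The longer model was 5.45-fold the length of the shorter. This ratio ranked 22 of 251, with a median of 1.47 over those loci, whereas malat1 (1.08) ranked 204 and cyrano (1.00) ranked 248. At each of these members the longest and shortest models came from different sources, unlike at most of the 251 loci.

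**Figure D2:**
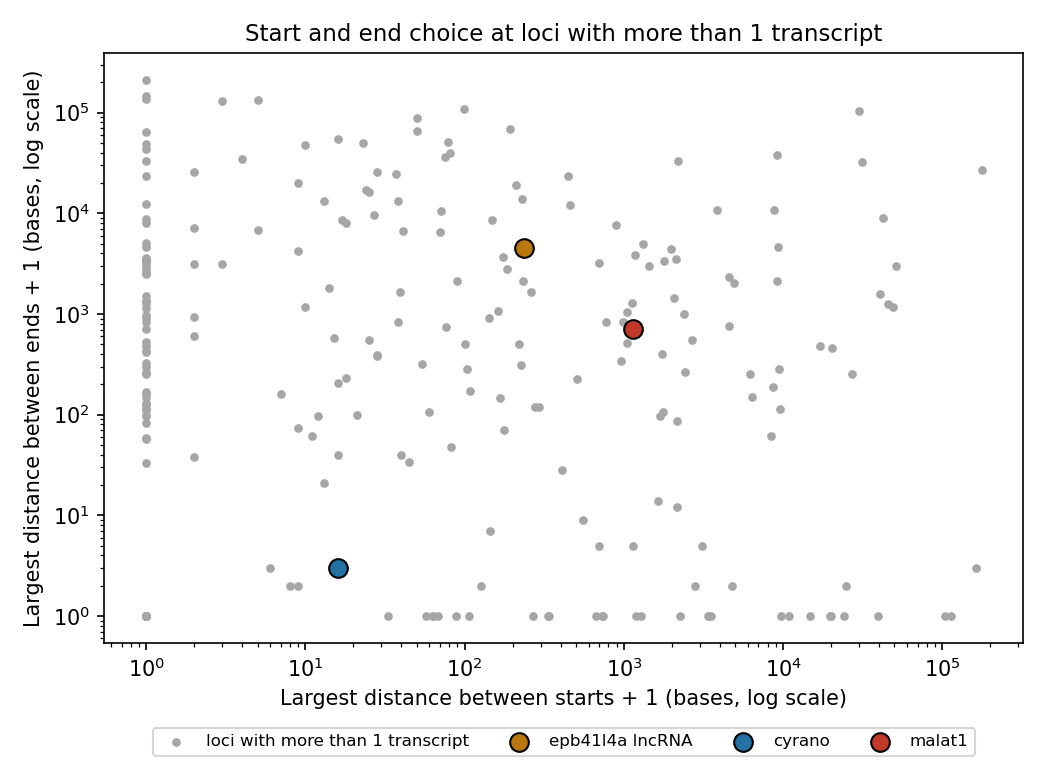
Largest distance between transcript starts (x axis) and between transcript ends (y axis) at each of the 251 loci with more than 1 transcript, in bases plus 1 on log scales. Malat1 lies at 1132 and 705 bases, cyrano at 15 and 2, and the epb41l4a lncRNA at 235 and 4538, so ends are further apart than starts at the epb41l4a lncRNA alone of the 3.

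Starts and ends both differed at malat1, cyrano and the epb41l4a lncRNA, as they did at 147 of the 251 loci (58.6%). At these members every such difference lay between models of different sources. In the catalogue, Zv9_ and linc- models met at 22 loci, RefSeq and Zv9_ models at 14 and RefSeq and linc- models at 2. Most of the 251 loci thus held models of a single source, and ranks among them compare unlike pairs. The median of the largest distance was 44 bases between starts and 418 bases between ends. By distance between starts malat1 ranked 64, the epb41l4a lncRNA 88 and cyrano 146, and by distance between ends they ranked 113, 59 and 192. The file also sorts transcripts into start groups. The cyrano models formed 1 group, while the linc- models of malat1 and the epb41l4a lncRNA each formed a group apart from the other models of their locus. Across the catalogue, pairs with different starts in 1 group were at most 151 bases apart.

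In spliced length, 3 of the 4 loci stood near the top of the catalogue. The longest model of a locus had a median of 1163 nt and ranged from 163 to 11211 nt. Malat1 ranked 6 of 1014 at 7.37-fold the median, the epb41l4a lncRNA 31 at 5.12-fold and cyrano 76 at 3.97-fold. Megamind ranked 413, at 1.21-fold. Malat1 was the longest of 45 loci on chromosome 14 and the epb41l4a lncRNA the longest of 33 on chromosome 10, while cyrano was third-ranked of 29 on chromosome 13 and megamind ranked 13 of 37 on chromosome 17.

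Ranked among all 1425 transcripts, the malat1 models stood at 6, 8 and 9, the epb41l4a lncRNA models at 36 and 724, the cyrano models at 90 and 91 and megamind at 540. Ranks within each source covered different loci, and only the linc- models covered all 4. The spliced malat1 models were the longest and second-longest of the 864 Zv9_ transcripts. The RefSeq model of cyrano was the longest of 27 RefSeq transcripts, and that of the epb41l4a lncRNA ranked 4. Among the 534 linc- transcripts malat1 ranked 6, the epb41l4a lncRNA 31, cyrano 76 and megamind 294.

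**Figure D3:**
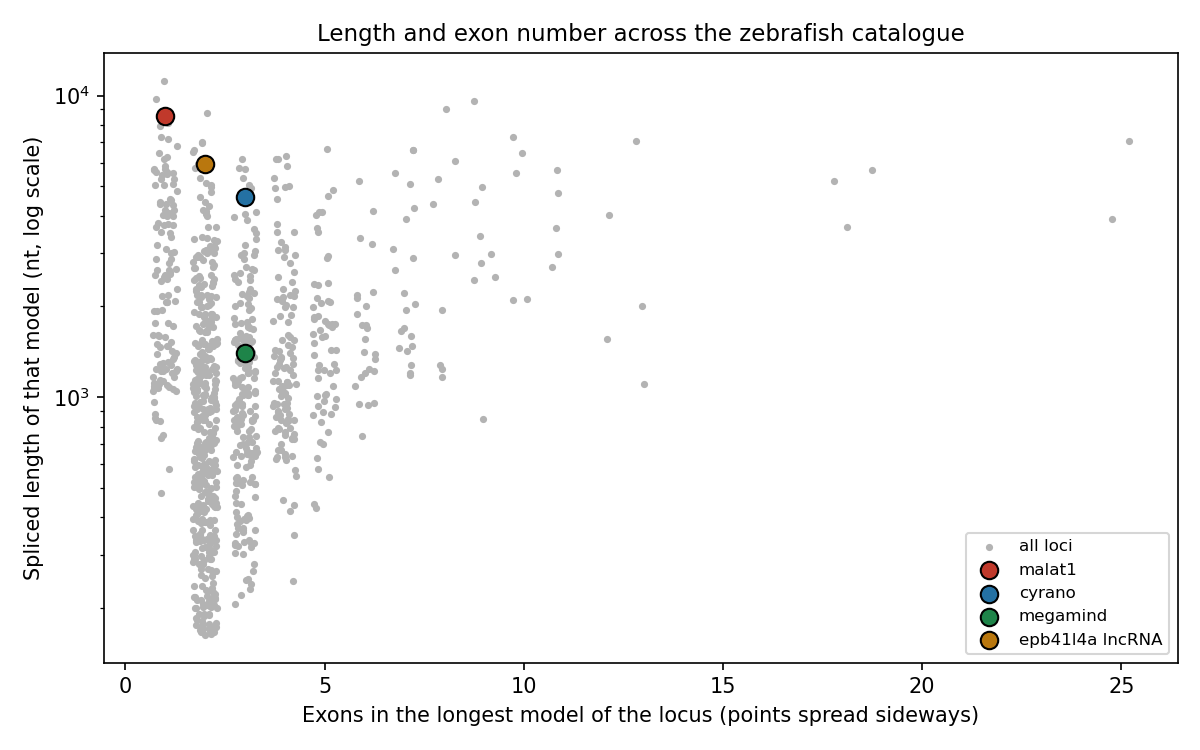
Exon number (x axis, points spread sideways) and spliced length in nt (y axis, log scale) of the longest model of each of the 1014 loci, with the 4 lncRNA loci in colour. Malat1, the epb41l4a lncRNA and cyrano lie near the top of the columns for 1, 2 and 3 exons, and megamind lies nearer the middle of its column.

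Exon numbers in the longest models ran from 1 to 3, around the catalogue median of 2. The longest of them, malat1, had the fewest exons, and the epb41l4a lncRNA came next in both. A single exon, as in malat1, was the longest model of 126 loci, 2 exons, as in the epb41l4a lncRNA, of 420 and 3 exons, as in cyrano and megamind, of 205. The remaining 263 loci had more exons than any of the 4, up to 25. Against loci with the same exon number, malat1 ranked 3 of 126 in length (median 2356 nt), the epb41l4a lncRNA 6 of 420 (median 720.5 nt), and cyrano 7 and megamind 67 of 205 (median 990 nt).

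The genomic extent of 3 loci lay between the quartiles of the catalogue (2732.5 and 18038.5 bp, median 6800 bp), and that of megamind lay below the lower one. The epb41l4a lncRNA spanned 10520 bp (rank 384), malat1 9276 bp (415), cyrano 6469 bp (521) and megamind 2616 bp (776). The share of that extent that was exon differed widely between models. The exonic share of the span was 97.5% in Zv9_00034242 and 97.4% in Zv9_00034241, ranks 5 and 6 of the 1257 multi-exon transcripts. It was 71.4% in both cyrano models, 56.6% in the linc- model of the epb41l4a lncRNA, 53.6% in megamind and 19.0% in NR_036690_1. The median over the 888 loci with 2 or more exons was 16.0%, so NR_036690_1 was the model nearest to it.

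**Figure D4:**
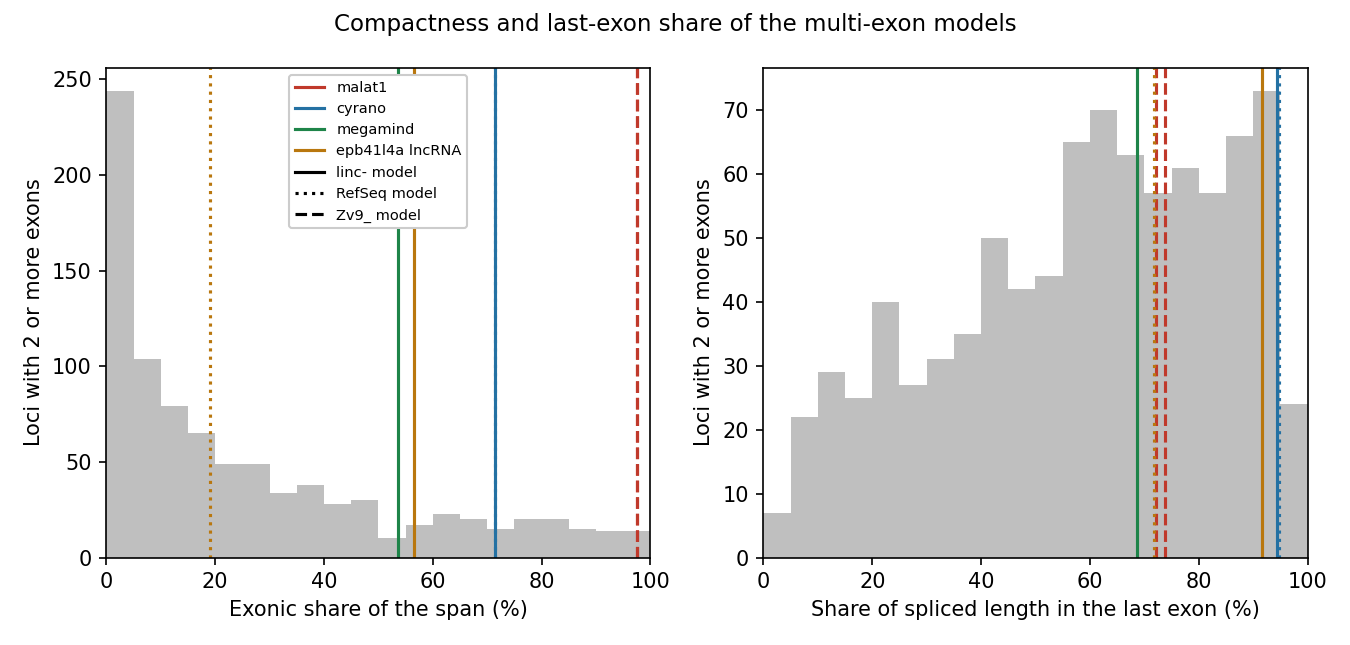
Exonic share of the genomic span (left) and share of spliced length in the last exon (right), in percent, for the longest models of the 888 loci with 2 or more exons (grey histograms), with vertical lines for the 7 multi-exon models of the 4 loci. The lines on the left run from 19.0% to 97.5% and those on the right from 68.6% to 94.7%.

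Introns of these models were mostly short. Over 2388 distinct introns the median was 1956.5 bp. The 89 bp intron of NR_036690_1 was longer than 4.90% of them, the malat1 introns of 206 and 208 bp than 19.2% and 19.3%, and the first cyrano intron than 22.3%. The megamind introns of 614 and 600 bp were longer than 31.6% and 31.4%, and the 1574 bp cyrano intron was longer than 44.8%. Only the 4566 bp intron of the epb41l4a lncRNA exceeded the median, at 70.2%.

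The last exon was the longest exon in each of the 7 multi-exon models. Over the 888 loci with 2 or more exons it held a median of 61.6% of the RNA. It was therefore the longest exon at most loci of the catalogue that have 2 or more exons. The last exons of Zv9_00034242 and Zv9_00034241 ranked 9 and 12 in length among 1179 distinct last exons, that of linc-epb4.1l4_1 ranked 15, and those of cyrano ranked 36 and 37. The median last exon measured 544 nt, which the last exons of megamind (962 nt, rank 352) and NR_036690_1 (784 nt, rank 437) also exceeded. As a share of the RNA, the last exon ranked 31 of 888 loci in cyrano (94.4%), 71 in the epb41l4a lncRNA (91.7%) and 360 in megamind (68.6%). Among 1257 multi-exon transcripts, that share ranked 391 in Zv9_00034242 (73.8%), 425 in Zv9_00034241 (72.2%) and 429 in NR_036690_1 (71.8%). The internal exons were short in every model that had one. They measured 61 nt in cyrano, 65 nt in megamind and 49 nt in NR_036690_1, and were longer than 17.3%, 19.7% and 9.60% of 1312 distinct internal exons, whose median was 108 nt. The first exons of malat1, at 2077 and 2206 nt, were longer than 98.5% and 98.6% of distinct first exons. Those of cyrano, at 198 and 183 nt, lay beside the median of 194 nt.

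No catalogue locus overlapped any of the 4. Malat1 had a close neighbour, XLOC_003469 (linc-zgc:56548_1, 7 exons and 6586 nt, from 48580074 to 48608921), which lay 5218 bp upstream on the plus strand. The loci point away from each other, and this gap ranked 83 from the smallest among the 992 loci with another locus on the same sequence. The nearest neighbours of cyrano, megamind and the epb41l4a lncRNA were 1483948, 1617873 and 1662220 bp away, ranks 876, 903 and 906, against a median of 373266 bp. These were XLOC_002837 and XLOC_005414 on the upstream side of the first pair and XLOC_001276 downstream of the epb41l4a lncRNA.

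Loci with the same exon number and the nearest spliced length shared some of these features and not others. For cyrano they were linc-btr12_1 (4949 nt), linc-loc100329297_1 (5063 nt) and linc-zgc:77517_1 (4122 nt), with 93.8%, 92.5% and 87.8% of the RNA in the last exon but exonic shares of 19.3%, 22.1% and 49.1%, all below the 71.4% of cyrano. For megamind they were linc-pus7l_(1_of_3)_1 (1402 nt, the same length), linc-zgc:77056_1 (1410 nt) and linc-zgc:76869_1 (1365 nt), with exonic shares of 36.3%, 35.6% and 26.5%, all below the 53.6% of megamind. For the epb41l4a lncRNA they were linc-ptges_1 (5845 nt), linc-agpat3_1 (5759 nt) and Zv9_00033951 (6518 nt), with exonic shares of 97.1%, 87.9% and 37.4% on either side of its 56.6%. For malat1 they were the single exons linc-tceb2_1 (8098 nt), linc-si:dkeyp-113d7.1_1 (7919 nt) and linc-rbl1_1 (9786 nt). In last-exon share the loci nearest megamind had 89.4%, 61.1% and 41.6%, on either side of its 68.6%. Those nearest the epb41l4a lncRNA had 46.6%, 86.8% and 96.5%, on either side of its 91.7%. By exonic share cyrano ranked 94 and megamind 161 of 888 loci with 2 or more exons, so more compact loci existed for both. The likeness of the nearest loci to the members is one of model size only, over 1 catalogue.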

How the data were processed

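Per the labels' protocols, footprints of about 30 nt were selected on a gel. The submitters' processing notes name bedtools, TopHat2 and Bowtie2 and the build Zv9 (danRer7). Their versions and settings, and their role in making the models, are not given in the sources used. The deposited values are not read counts but exon coordinates in 1 table, with both end bases included and numbering from 1. Per the authors' deposited description, the table joins models of Ulitsky et al. (linc-) and Pauli et al. (Zv9) with other developmental and RefSeq transcripts of the same loci, and it does not give the step that joined them. Because the sources used different libraries and methods, a difference between models of different sources at a locus cannot be told apart from a difference between the sources. Passed-over columns of per-sample values numbered 0, and the mouse catalogue was not used here.

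Exons were ordered by strand, introns were taken as the gaps between them, and the longest spliced model stood for its locus. A rank counts the larger values and adds 1. Distinct exons and introns were counted by coordinates. The rule for named items took every model of the 4 loci, the nearest catalogue locus on each side, and the 3 loci of equal exon number nearest in log2 length. The reading of structures was tested on simulated models. No test was run. The 4 loci and the rule were chosen with earlier results of these data known. Sequences were not analysed here, so a planned search of promoter windows was not run. Tools were matplotlib 3.10.9, pandas 2.3.3, numpy 2.4.6 and scipy 1.17.1 under Python 3.11.15.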

Additional observations from a re-analysis of the deposited data

How the results depend on the processing

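The share of other loci with a shorter longest model was 99.5% for malat1, 97.0% for the epb41l4a lncRNA, 92.6% for cyrano and 59.2% for megamind, and the share with fewer exons was 0%, 12.4%, 53.9% and 53.9%. A share was counted as moved where an alternative left its exact 95% binomial interval, which covers counting error only. Of 40 alternative shares 26 stayed within such bounds, among them all 8 with merged exons and all 8 without RefSeq loci. This count includes the exon share of malat1, which is 0% in every setting by construction, since no locus has fewer than 1 exon. Leaving out RefSeq loci kept 996 or 997 of the 1013 other loci, so those shares had little room to move. Merging exons could change only loci with more than 1 transcript. As 763 of the 1014 loci had 1 transcript, the shares with merged exons also had little room to move. Against loci of linc- models alone, the length shares were 98.8%, 93.8%, 84.9% and 42.6% in the same order, and the exon shares 28.6% for the epb41l4a lncRNA, 45.7% for cyrano and 45.8% for megamind. Megamind was thus above the middle of the whole catalogue in length and below the middle of the linc- loci. Among loci with 2 or more exons the length share was 94.5% for cyrano and 63.1% for megamind, and the exon share 47.4% for both and, by construction, 0% for the epb41l4a lncRNA. With every transcript as a unit the exon share was 48.8% for cyrano and 48.7% for megamind. These alternatives change which models are compared, and no cause beyond that was tested. With positions within 50 bases counted as 1, cyrano had 1 start and 1 end in place of 2 each. No paired analysis was possible because each stage has 1 library and the table holds no value per library.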
